A study of Mus musculus with 9 samples.

Results

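The genes described here carry the names of the machinery that moves membrane between compartments and releases transmitter at synapses. They were matched by symbol, with no measured value in the rule, but the symbols were chosen with earlier results of these data known. The symbols cover synaptotagmins, syntaxins and syntaxin-binding proteins, SNAP25-family and VAMP proteins, synapsins, complexins, SV2 proteins, NSF and its adaptors. They also cover Rab, Arf and Arl GTPases, AP adaptor subunits, Sec, COPI and Vps proteins and sorting nexins. Of the 2996 genes analysed, 65 matched, and 61 of these were expressed highly enough to test. Complexins, SV2 proteins and Nsf, like all genes outside the 2996, were not analysed here. One match is a namesake: Vps72 is a subunit of a chromatin complex that exchanges histones.

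Messenger RNA was sequenced from perfused mouse brain in 9 libraries, 3 per group, from animals described as 24 months old. Group C (C1 to C3) had drinking water with no stated dose of perfluorooctane sulfonate (PFOS), a persistent fluorinated surfactant. Group L (L1 to L3) drank 0.5 µg of PFOS per litre and group H (H1 to H3) 50 µg per litre, both for 7.5 months. The labels give the tissue as brain, name no strain or sex, and do not say that each library is a separate animal, so p-values measure only the spread between these libraries, which may be technical. Values are FPKM, fragments scaled by transcript length and library size, from libraries of 15371513 to 20431208 reads. At this depth a count of 3 reads on 1 kb of transcript amounts to between 0.147 and 0.195 FPKM, a limit that covers counting error only.

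Membrane traffic runs on a shared scheme. Coat complexes and adaptors bud vesicles from a donor membrane, Rab and Arf GTPases give each compartment its identity and recruit tethers, and SNARE proteins on vesicle and target zip together to fuse them. At the synapse the plasma membrane SNARE syntaxin 1A and the vesicle SNARE VAMP2 form that fusion complex with SNAP25, synaptotagmins sense the calcium that triggers it, and NSF with its adaptor alpha-SNAP takes the spent complex apart.

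C1 and L3 stood apart from the other 7 libraries before any comparison of exposure. A principal component analysis of all genes tested placed 58.8% of the variance on component 1, where they lay at -28.2 and -19.2, against -2.40 to 11.1 for the others. Of 16 cerebellar marker genes, 4 were measured (Gabra6, Ppp1r17, Pcp2 and Lhx1). Their summed level was 533.6 FPKM in C1 and 119 FPKM in L3, against 38.6 FPKM in L1, 7.62 FPKM in H1 and 0.810 FPKM or less in the rest. Differences that moved by over 1.5 times without C1 and L3 are therefore given both ways for the members named by smallest p. The striatal genes Adora2a and Rgs9, 2 of 11 markers, summed to 22.1 FPKM in C2, 25.0 in C3, 57.0 in L1 and 53.0 in H2, against 2.67 FPKM or less elsewhere. Neuronal markers as a class were present in all libraries, with 5 of 14 measured and a summed level of 319 to 683 FPKM, as were 5 of 10 astrocyte markers at 539 to 990.5 FPKM. Nefh alone made up 386 FPKM of the neuronal sum in L3, its highest library. Microglial markers were not analysed here.

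Among the members the widest differences between libraries were found in Stx1a, Syt5, Rab3b, Ap1s1 and Rab37, and they stood within groups C and L. Stx1a (ENSMUSG00000007207, chr5:135023482-135051100, plus strand, GRCm38) encodes syntaxin 1A. Its level was 1.11, 92.3 and 82.7 FPKM in C1 to C3, 27.1, 73.7 and 3.35 FPKM in L1 to L3, and 61.0, 49.2 and 109 FPKM in H1 to H3. C1 and L3 were the lowest libraries and L1 the next, and each group's values overlapped those of the other groups. The highest level was 97.3 times the lowest, and the low values rested on 51 reads in C1 and 164 in L3, against up to 5475 elsewhere. In bulk tissue fewer cells of a type and less RNA per cell cannot be told apart, here and throughout.

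Syt5 (ENSMUSG00000004961, chr7:4539765-4547541, minus strand) encodes a synaptotagmin, a calcium sensor of regulated secretion. It was measured at 3.30, 61.8 and 68.7 FPKM in C1 to C3, 77.7, 73.6 and 7.65 FPKM in L1 to L3, and 54.0, 71.1 and 73.5 FPKM in H1 to H3. The low libraries were again C1 and L3, while the other 7 lay within 54.0 to 77.7 FPKM. Rab3b (ENSMUSG00000003411, chr4:108879063-108943324, plus strand), a Rab GTPase of synaptic and secretory vesicles, stood at 3.52, 15.6 and 18.0 FPKM in C1 to C3, 34.9, 22.8 and 9.33 FPKM in L1 to L3, and 15.9, 21.5 and 17.3 FPKM in H1 to H3. C1 and L3 were lowest here too, L1 was highest, and the groups overlapped.

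Ap1s1 (ENSMUSG00000004849, chr5:137034993-137046135, minus strand) encodes the small sigma subunit of AP1, the clathrin adaptor of the trans-Golgi network and endosomes. Its level was 21.2, 100.3 and 60.1 FPKM in C1 to C3, 76.4, 103 and 25.8 FPKM in L1 to L3, and 74.4, 114 and 88.7 FPKM in H1 to H3. Rab15 (ENSMUSG00000021062, chr12:76797960-76822908, minus strand), a Rab of recycling endosomes, followed the same library order at its low end, with 26.2, 67.0 and 58.2 FPKM in C1 to C3, 51.5, 61.2 and 20.7 FPKM in L1 to L3, and 48.4, 55.8 and 51.5 FPKM in H1 to H3. In both genes C1 and L3 were the lowest libraries and the other 7 did not reach down to them. Rab37 (ENSMUSG00000020732, chr11:115091431-115162236, plus strand), a Rab of secretory granules, ran the other way, at 6.47, 1.09 and 0.635 FPKM in C1 to C3, 1.37, 0.497 and 5.52 FPKM in L1 to L3, and 2.35, 2.06 and 0.684 FPKM in H1 to H3. C1 and L3 were its highest libraries, and H1 and H2 the next.

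The promoters of Stx1a, Rab3b and Ap1s1 are printed here. Among the members lowest in C1 and L3 with 1 promoter entry, these genes had the widest ranges between libraries. Each sequence is the 250 bases before the RefSeq transcription start on GRCm38.p6, read 5′ to 3′ on the gene's strand. Capitals mark TGACG, the core of the cAMP response element, and GGGCGG, the GC box, on either strand. The stretches lie at chr5:135023232-135023481 (plus strand) for Stx1a, chr4:108878820-108879069 (plus strand) for Rab3b and chr5:137046109-137046358 (minus strand) for Ap1s1.
Stx1a: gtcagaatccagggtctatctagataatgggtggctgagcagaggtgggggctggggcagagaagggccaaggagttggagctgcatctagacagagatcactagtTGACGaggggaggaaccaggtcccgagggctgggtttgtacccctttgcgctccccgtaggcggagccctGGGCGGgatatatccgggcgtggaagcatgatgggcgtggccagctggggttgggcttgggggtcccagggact
Rab3b: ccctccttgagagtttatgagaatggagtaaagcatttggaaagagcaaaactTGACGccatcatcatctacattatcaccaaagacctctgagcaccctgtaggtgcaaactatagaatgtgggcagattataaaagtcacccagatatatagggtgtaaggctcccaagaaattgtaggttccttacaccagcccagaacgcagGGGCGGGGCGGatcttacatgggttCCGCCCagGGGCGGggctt
Ap1s1: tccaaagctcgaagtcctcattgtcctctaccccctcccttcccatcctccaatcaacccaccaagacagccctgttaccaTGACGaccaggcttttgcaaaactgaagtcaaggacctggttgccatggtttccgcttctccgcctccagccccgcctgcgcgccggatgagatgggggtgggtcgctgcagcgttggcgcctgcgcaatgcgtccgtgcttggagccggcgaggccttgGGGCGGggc

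Each of these promoters held 1 TGACG, at position -144 from the start in Stx1a, -197 in Rab3b and -169 in Ap1s1. None held the full palindrome TGACGTCA. Of the other members lowest in C1 and L3 that have an entry, Arf5 held 1 TGACG. Ap2s1, Ap4s1, Snx11, Stxbp5, Vps45, Vps53, Rab15 and Syn2 held none, so TGACG was not shared by these members. Stx1a and Ap1s1 each held 1 GC box, and Rab3b held 4, of which a pair overlaps, beside 1 TATAAA. Guanine and cytosine made up 62.0% of the Stx1a stretch, 62.8% of Ap1s1 and 48.8% of Rab3b, against a median of 52.4% over all promoters.

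The same letters were searched, on both strands, in 64 promoters of the 53 members with an entry and in all 32851 promoters of the table. TGACG was present in 25 of the 64 (39.1%), against 17.8% of all promoters. GGGCGG was present in 40 (62.5%), against 32.7% of all. TATAAA was found in 3 (4.69%), against 12.4% of all, and TGACGTCA in 3 (4.69%), against 1.55%. The E-box CANNTG occurred in 42 (65.6%) against 66.2%, and CCAAT in 23 (35.9%) against 33.8%. These are matches of letters, not binding sites, and no test was made of the shares. The background promoters were not limited to genes tested here and were not matched for guanine and cytosine. These bases made up 43.2% to 83.2% of the members' promoters, most of which lay above the median of 52.4% over all promoters. The part of base composition in the shares was not tested.

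**Figure D1:**
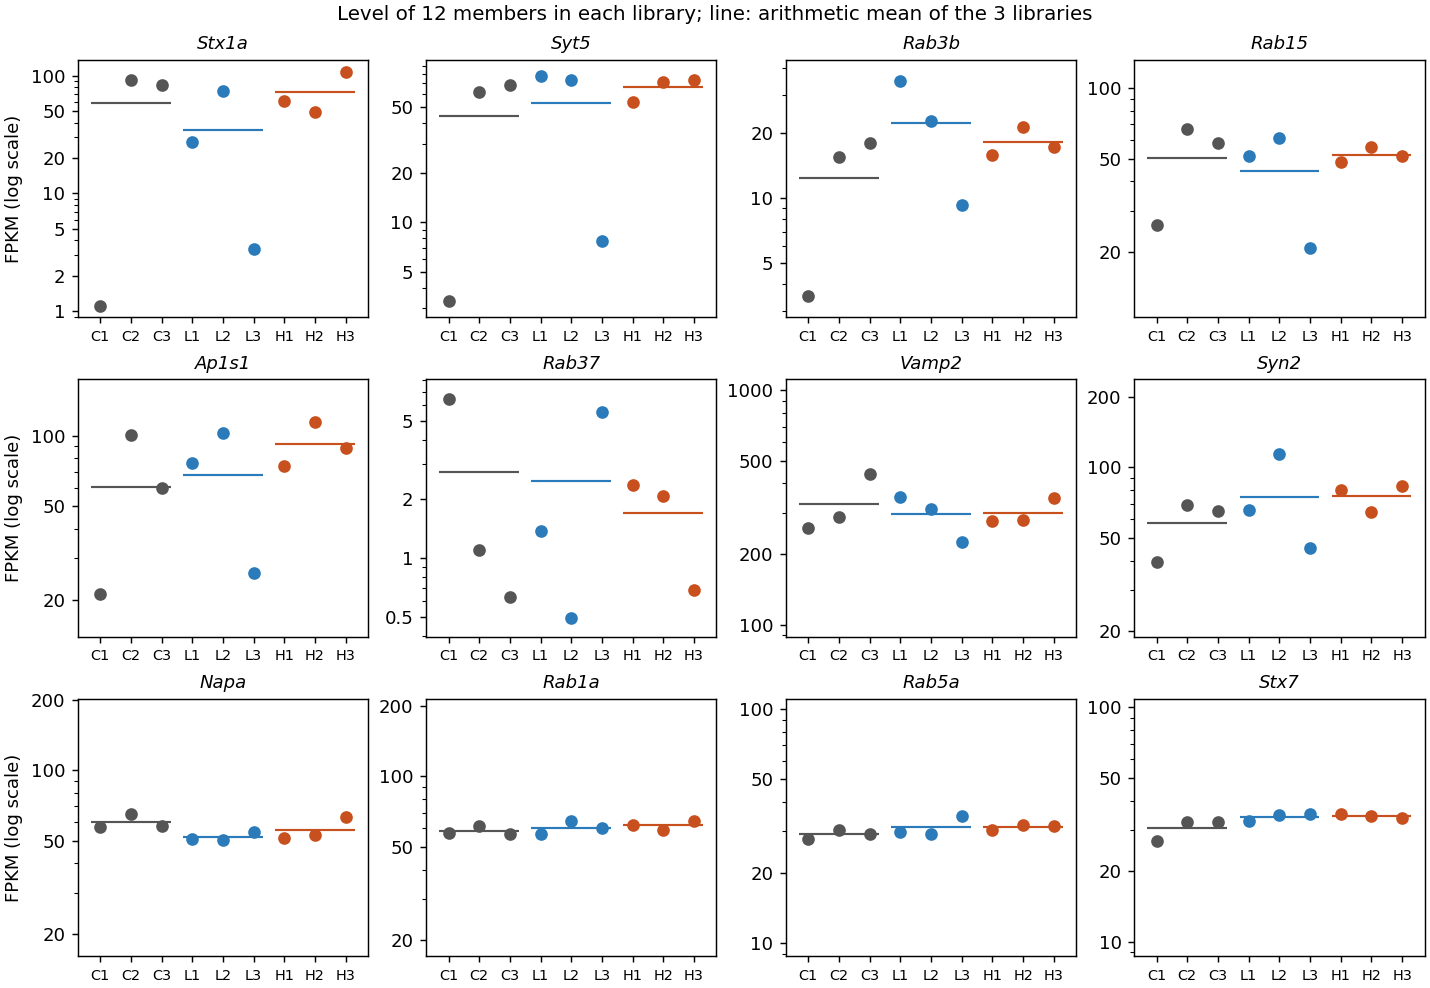
FPKM (log axis, at least an 8-fold span in each panel) of 12 members in the 9 libraries, C in grey, L in blue and H in orange, with a line at the mean of each group's 3 libraries. Stx1a, Syt5, Rab3b, Rab15 and Ap1s1 are lowest in C1 and L3 and Rab37 is highest there, while Rab1a, Rab5a, Napa and Stx7 differ little between libraries.

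The other measured parts of the release machinery had narrower ranges. Vamp2 (ENSMUSG00000020894, chr11:69088490-69092384, plus strand), the vesicle SNARE that pairs with syntaxin 1A, was the most abundant member per length, at 258, 288 and 438 FPKM in C1 to C3, 351, 312 and 225 FPKM in L1 to L3, and 275, 279 and 346 FPKM in H1 to H3. L3 and C1 were again lowest, but the spread was 1.94-fold, against 97.3-fold for Stx1a. Syn2, a synapsin that tethers vesicles to the cytoskeleton and to each other, was at 39.3, 69.3 and 65.3 FPKM in C1 to C3, 65.4, 114 and 45.3 FPKM in L1 to L3, and 79.8, 64.2 and 83.2 FPKM in H1 to H3. L2 was highest and C1 and L3 lowest. Napa, which encodes alpha-SNAP, had 57.0, 64.8 and 57.9 FPKM in C1 to C3, 51.0, 50.1 and 54.4 FPKM in L1 to L3, and 51.3, 52.8 and 63.1 FPKM in H1 to H3, and all L libraries lay below all C libraries.

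Snap47, a SNAP25-family protein found widely on intracellular membranes, stood at 63.9, 132 and 101 FPKM in C1 to C3, 110.3, 143 and 107 FPKM in L1 to L3, and 147, 119 and 127 FPKM in H1 to H3. C1 was lowest and H1 highest, and the groups overlapped. The SNAREs of the late endosome, Stx7 and Stx8, spanned 26.9 to 35.1 and 2.11 to 3.46 FPKM, and Stx5a, the SNARE of transport between endoplasmic reticulum and Golgi, spanned 5.22 to 9.25 FPKM. Syt14, a synaptotagmin of low level, spanned 1.79 to 3.13 FPKM, with C1 highest and L3 lowest.

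Proteins that chaperone or block syntaxins did not share 1 library order. Stxbp5, or tomosyn, which occupies syntaxin and inhibits SNARE assembly, was at 6.95, 9.76 and 8.65 FPKM in C1 to C3, 8.18, 9.46 and 6.10 FPKM in L1 to L3, and 9.05, 9.62 and 10.9 FPKM in H1 to H3. It was lowest in L3 and C1 and highest in H3. Vps45, the Sec1/Munc18 protein of endosomes, was also lowest in C1 and L3, within 9.53 to 14.1 FPKM. Stxbp2, or Munc18-2, a partner of syntaxins in secretory cells outside neurons, was by contrast highest in C1 (8.48 FPKM) and lowest in L3 (3.77 FPKM).

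Within a library the ratio of 2 genes does not depend on the library's scale. The ratio of Stx1a to Vamp2 was 0.00432 in C1 and 0.0149 in L3, against 0.0774 in L1 and 0.176 to 0.320 in the other 6 libraries. That of Syt5 to Vamp2 was 0.0128 in C1 and 0.0339 in L3, against 0.157 to 0.255 in the other 7. Syn2 to Vamp2 spanned 0.149 to 0.366 with C1 and L3 inside that range, and Napa to Vamp2 spanned 0.132 to 0.241. The messenger RNAs of the SNARE pair were thus measured in unequal proportion across libraries. How far the brain regions in each library, read from the cerebellar markers above, account for this was not tested.

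Of the Rab GTPases 18 were measured and 17 tested. The Rab5 paralogs of the early endosome were among the steadiest members. Rab5a spanned 27.9 to 34.9 FPKM, Rab5b 52.6 to 65.8 FPKM and Rab5c 53.2 to 67.2 FPKM over the 9 libraries. As a share of the 3 paralogs' summed FPKM, Rab5a made up 18.7% to 22.6%, Rab5b 35.7% to 42.8% and Rab5c 34.6% to 43.1%. L3 had the highest shares of Rab5a and Rab5b and the lowest share of Rab5c.

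Rab1a, which directs transport from endoplasmic reticulum to Golgi, lay within 56.8 to 64.8 FPKM, a range of 0.19 on the log2(FPKM + 1) scale used for all differences here. Among tested members only Sec63, of the endoplasmic reticulum translocon, had a narrower range, 0.17. Rab10 and Rab8a, which act in delivery to the plasma membrane, spanned 45.1 to 58.8 and 8.85 to 11.95 FPKM. Among the recycling Rabs, Rab4a spanned 21.1 to 29.1 FPKM with C1 and L3 highest, and Rab11a was at 21.2, 31.1 and 20.3 FPKM in C1 to C3, 19.6, 33.3 and 28.4 FPKM in L1 to L3, and 33.4, 28.6 and 27.5 FPKM in H1 to H3. Rab11a was lowest in L1, C3 and C1, with L3 among the middle libraries.

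Rab11fip4, an effector that binds Rab11, was at 40.9, 63.9 and 56.1 FPKM in C1 to C3, 46.6, 53.6 and 36.5 FPKM in L1 to L3, and 55.9, 51.3 and 63.1 FPKM in H1 to H3. L3 and C1 were its lowest libraries and C2 and H3 its highest. Rab3d, a paralog of Rab3b best known from exocrine secretion, was low throughout, at 1.71 to 3.64 FPKM. The ratio of Rab3b to Rab3d per length was 0.968 in C1 and 19.2 in L1, and it stood at 4.43 to 12.6 in the other 7 libraries.

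Rab21, a Rab of early endosomes, was highest in L3 (37.1 FPKM) and C1 (32.5 FPKM) and lay within 22.5 to 30.5 FPKM elsewhere. Lower levels were measured for Rab23, which regulates hedgehog signalling at the cilium (3.89 to 5.62 FPKM), for Rab34 (2.78 to 6.41 FPKM), for Rab36 (2.28 to 6.10 FPKM) and for Rab32 of lysosome-related organelles (0.851 to 1.86 FPKM). Rab25, a Rab of epithelia, had 0 to 6 reads per library and was not tested.

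For the adaptors, messenger RNA of several subunits of 1 complex could be compared, which does not give the make-up of the protein complex. AP1 is built from large, medium and small subunits, of which Ap1b1 (large), Ap1m1 (medium) and Ap1s1 (small) were tested. The ratio of Ap1s1 to Ap1m1 was 1.0 in C1 and 1.04 in L3, against 3.08 to 6.62 in the other 7 libraries. Ap1s1 to Ap1b1 gave 0.676 in C1 and 0.589 in L3, against 1.62 to 2.75. The messenger RNAs of the tested AP1 subunits were thus not low together: Ap1m1 was at 21.1, 16.9 and 19.5 FPKM in C1 to C3, 23.7, 18.1 and 24.7 FPKM in L1 to L3, and 17.2, 17.2 and 17.8 FPKM in H1 to H3, with L3 highest. Ap1m2, the medium subunit of the epithelial AP1, had 3 to 47 reads and was not tested.

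For AP2, the adaptor of clathrin-coated pits at the plasma membrane, the large subunit Ap2a2 spanned 33.4 to 55.7 FPKM. The small subunit Ap2s1 was at 28.4, 54.7 and 28.9 FPKM in C1 to C3, 36.3, 58.7 and 28.5 FPKM in L1 to L3, and 55.0, 48.2 and 49.9 FPKM in H1 to H3, and its libraries C1, C3 and L3 were the lowest, with L1 next. The ratio of Ap2s1 to Ap2a2 was 0.656 to 1.21. AP3, which sorts cargo to lysosomes and synaptic vesicles, was represented by its delta subunit Ap3d1, within 21.9 to 28.1 FPKM. For AP4, an adaptor of the trans-Golgi network, Ap4s1 spanned 16.6 to 30.8 FPKM and Ap4m1 0.945 to 2.14 FPKM, with a ratio between 8.52 in C1 and 24.96 in C2. Exons of Ap4m1 overlap Mcm7 and Taf6 on the opposite strand, as exons of Ap4s1, Rab3b, Syn2, Snap47, Rab5a and Arf5 overlap other genes. The sources used here do not say whether counting used strand, so levels of these genes may include reads of the other.

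**Figure D2:**
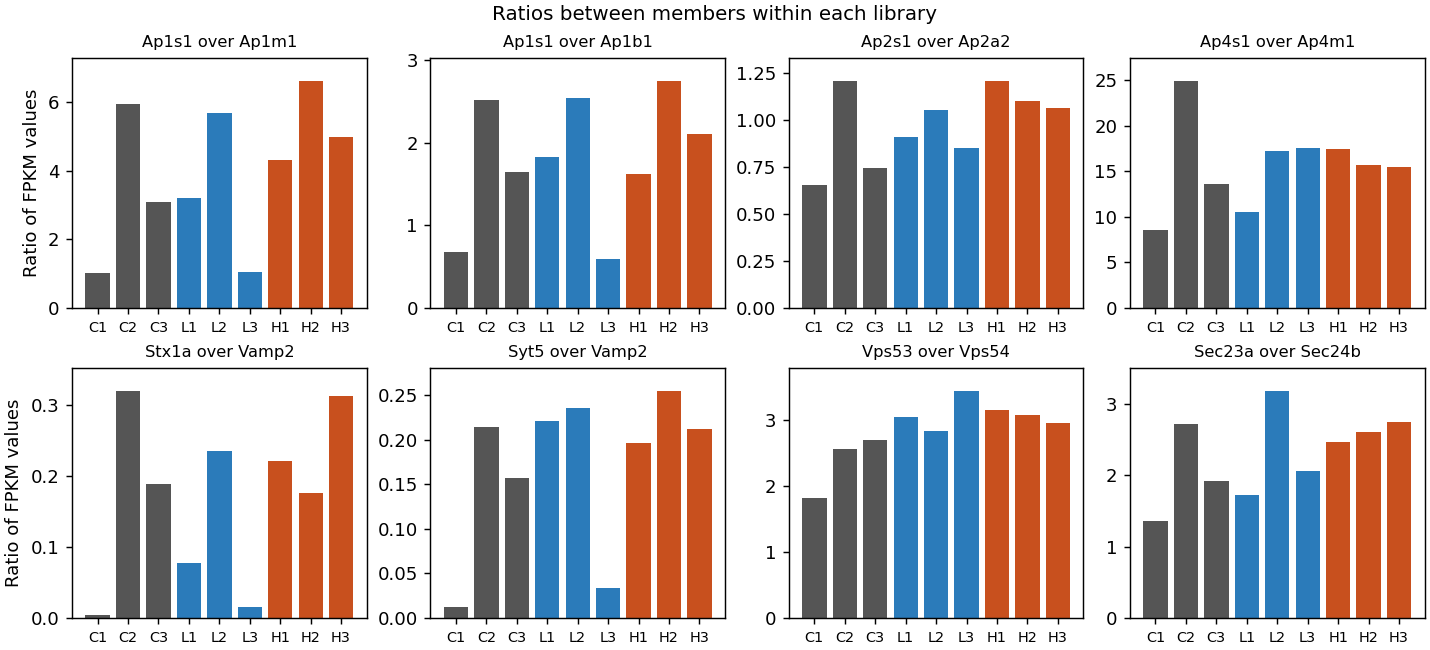
Ratio of 2 members' FPKM within each library (bars from 0), C in grey, L in blue and H in orange. Ap1s1 over Ap1m1 stands near 1 in C1 and L3 and at 3.08 to 6.62 elsewhere, and Stx1a over Vamp2 is at most 0.0149 in C1 and L3, while Ap2s1 over Ap2a2 and Vps53 over Vps54 show no such gap.

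Components of the early secretory path, and other genes matched by a Sec name, were steady or moderately variable. Sec23a and Sec24b, partners in the COPII coat that leaves the endoplasmic reticulum, spanned 23.4 to 38.2 and 11.6 to 17.2 FPKM. Their ratio was lowest in C1 at 1.36 and highest in L2 at 3.18. Copz2, a zeta subunit of the COPI coat, was at 1.58, 1.76 and 1.77 FPKM in C1 to C3, 1.41, 1.86 and 1.83 FPKM in L1 to L3, and 1.73, 0.853 and 1.27 FPKM in H1 to H3, with H2 lowest. The lipid-binding Sec14l1 was at 35.0, 41.0 and 41.0 FPKM in C1 to C3, 32.6, 37.5 and 17.6 FPKM in L1 to L3, and 30.5, 37.9 and 43.6 FPKM in H1 to H3, with L3 alone low. Its relative Sec14l2 was at 6.30, 13.6 and 9.22 FPKM in C1 to C3, 7.25, 15.2 and 8.18 FPKM in L1 to L3, and 10.6, 10.7 and 9.14 FPKM in H1 to H3, with C1 lowest and L2 highest. Arf5, a class II Arf of the Golgi, spanned 15.9 to 31.2 FPKM and was lowest in L3 and C1.

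Several endosomal genes had ranges below the members' median, others above it. Vps26a, a retromer subunit that retrieves cargo from endosomes, spanned 25.0 to 31.2 FPKM, and Vps4b, the ATPase that disassembles ESCRT filaments, 5.45 to 7.29 FPKM. Vps53 belongs to 2 tethering complexes, GARP with Vps54 and EARP with Vps50. It was measured at 12.8, 13.8 and 13.3 FPKM in C1 to C3, 14.6, 15.3 and 12.9 FPKM in L1 to L3, and 15.8, 15.2 and 15.3 FPKM in H1 to H3. All H libraries lay above all C libraries, and C1 and L3 were the lowest. Vps53 stood at 1.82 to 3.45 times Vps54, with C1 lowest and L3 highest.

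Vps50 spanned 4.42 to 7.50 FPKM and Vps54 3.74 to 7.06 FPKM. Vps54, with a log2 range of 0.77, was highest in C1 and lowest in L3, so that C1 and L3 stood at opposite ends. Snx3, a sorting nexin of retromer traffic, was the most abundant endosomal member per length at 70.3 to 92.1 FPKM, with L3 highest. Vps72, the chromatin namesake, spanned 6.03 to 11.6 FPKM with C1 highest.

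**Figure D3:**
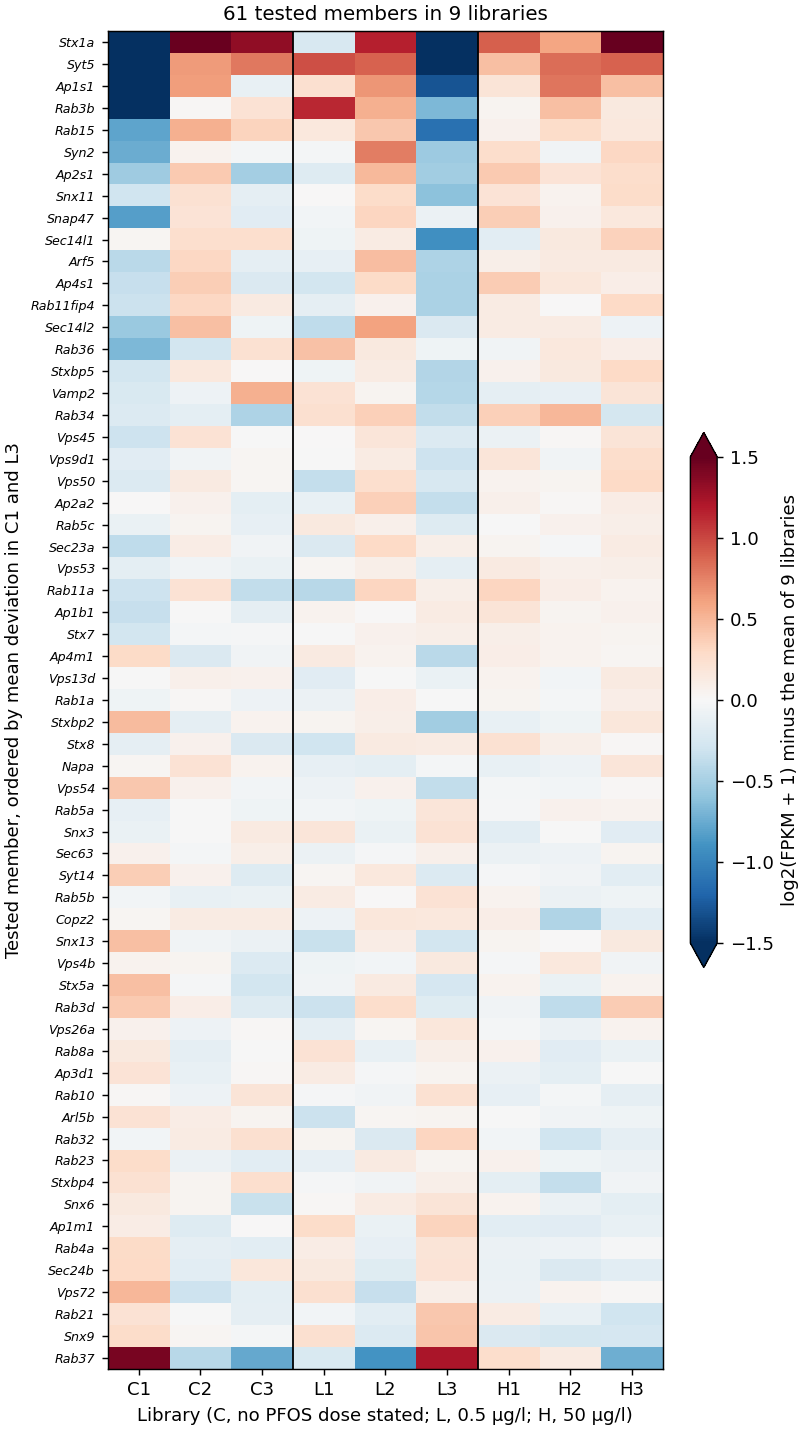
Deviation of log2(FPKM + 1) from the mean of the 9 libraries for the 61 tested members, ordered from low to high in C1 and L3 (colours end at 1.5 in each direction). The strong colours stand in C1 and L3 for a few members at the top (Stx1a, Syt5, Ap1s1, Rab3b, Rab15) and for Rab37 at the bottom.

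Over all 61 tested members the widest ranges on the log2(FPKM + 1) scale were 5.69 for Stx1a, 4.19 for Syt5, 2.99 for Rab3b, 2.37 for Ap1s1, 2.32 for Rab37, 1.65 for Rab15 and 1.52 for Syn2. Without C1 and L3 the same ranges were 1.96, 0.52, 1.11, 0.91, 1.16, 0.46 and 0.82. The median range of the members was 0.68, against 0.76 for all 2226 genes tested, and 0.45 against 0.50 without C1 and L3. A range above 1 was found in 12 members (19.7%), against 30.3% of all tested genes. Both the median and this share lay below those of all tested genes.

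C1 and L3 were the lowest libraries in 16 members (26.2%), against 13.2% of all tested genes. These were Stx1a, Syt5, Vamp2, Syn2, Stxbp5, Vps45, Rab3b, Rab15, Rab11fip4, Arf5, Ap1s1, Ap2s1, Ap4s1, Snx11, Vps53 and Vps9d1. They were the highest libraries in 7 members, against 15.9% of all tested genes: Rab21, Rab37, Rab4a, Sec24b, Snx6, Snx9 and Vps26a. This library order was noticed in the data, so the shares are a description with no test. A further order, in which C1, C3, L1 and L3 were the lowest libraries, was found in 8 members (13.1%), among them Ap2s1, Snap47 and Arf5, against 7.46% of all tested genes.

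The comparison of H with C asks which members differ after exposure to the higher PFOS concentration. No member passed the threshold of 0.05 on the adjusted p (limma, Benjamini-Hochberg over 2226 genes), and the share called among all genes was 0%. At an unadjusted p under 0.05 stood 1 member, Stxbp4 (1.64%), against 3.19% of all genes. The libraries of H and C did not overlap in 7 of the 61 members, against 10.3% of all genes, so the members' share was near the background. H lay above C in 3 of them (4.92%), against 5.35% of all genes, and below C in 4 (6.56%), against 4.94%. The mean was higher in H in 33 members (54.1%, against 52.7% of all genes) and lower in 28. The median difference was 0.06, against 0.02 for all genes. Without C1 and L3, 38 members (62.3%) had a higher mean in H, against 61.7% of all genes, and both medians were 0.04.

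Stxbp4, which binds syntaxin 4 in insulin-regulated vesicle traffic, had the smallest p. It measured 1.78, 1.41 and 1.95 FPKM in H1 to H3, against 2.61, 2.15 and 2.67 FPKM in C1 to C3. All H libraries lay below all C libraries, with means of 1.71 ± 0.280 FPKM in H and 2.48 ± 0.286 FPKM in C (SD, n = 3 each). The difference was -0.36 ± 0.14 (SE, unadjusted p = 0.0277, adjusted p = 0.890, limma) and -0.33 ± 0.14 without C1 and L3. With C3, H1 or H2 left out, its unadjusted p in limma was no longer under 0.05.

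Ap1b1, the large beta subunit of AP1, had 46.0, 41.4 and 42.1 FPKM in H and 31.4, 39.8 and 36.4 FPKM in C. All H libraries lay above all C libraries, and C1 was the lowest of all. The means were 43.1 ± 2.47 FPKM in H and 35.9 ± 4.25 FPKM in C (SD, n = 3 each), a difference of 0.26 ± 0.12 (SE, adjusted p = 0.890, limma). Without C1 and L3 it was 0.17 ± 0.11. Vps53 had a difference of 0.20 ± 0.11 (SE, adjusted p = 0.890, limma), with the libraries given above.

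Snx9, which bends membrane and recruits dynamin in endocytosis, measured 4.97, 4.78 and 4.84 FPKM in H and 7.36, 6.10 and 5.79 FPKM in C. The H libraries lay within a narrow band below every C library, and the difference was -0.33 ± 0.17 (SE, adjusted p = 0.890, limma). Rab32 measured 1.21, 0.851 and 1.08 FPKM in H and 1.22, 1.49 and 1.70 FPKM in C. The H1 and C1 values of Rab32 were nearly equal although the groups did not overlap, and its difference was -0.27 ± 0.18.

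The other differences with the smallest p were 0.47 ± 0.25 for Rab34, a Rab of the Golgi and cilium, 0.46 ± 0.25 for Snap47 and 0.50 ± 0.31 for Ap2s1, all with a higher mean in H. Lower means in H were found for Sec24b at -0.26 ± 0.16 and Copz2 at -0.26 ± 0.17 (all SE, adjusted p = 0.890, limma). In each of these 5 genes the libraries of H and C overlapped. The difference without C1 and L3 was 0.18 ± 0.18 for Snap47 and -0.16 ± 0.15 for Sec24b. Stx7 (H above C) and Arl5b, an Arf-like GTPase of the Golgi (H below C), made up the 7 without overlap, with 0.17 ± 0.11 and -0.16 ± 0.13.

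The largest differences in size were those of the genes that were low in C1, and they were also the least certain. The difference of Stx1a was 1.46 ± 1.51 (SE, 95% interval -2.00 to 4.91) with all libraries and -0.34 ± 0.46 without C1 and L3. That of Syt5 was 1.32 ± 1.17 (95% interval -1.35 to 3.99) with all libraries and 0.01 ± 0.16 without them. For Rab3b the values were 0.76 ± 0.60 and 0.10 ± 0.21, for Ap1s1 0.83 ± 0.62 and 0.22 ± 0.27, and for Rab15 0.14 ± 0.44 and -0.27 ± 0.14. The sign of Stx1a, Rab15 and Rab37 (-0.19 and 0.48) thus turned when the pair of libraries was left out. Of the 61 members 44 kept their sign, and Stxbp4 was then the 1 member at an unadjusted p under 0.05.

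The 95% intervals of the measured core release genes in H against C all held 0. The 95% interval was -0.64 to 0.45 for Vamp2 around -0.10, -0.36 to 1.19 for Syn2 around 0.41, -0.39 to 0.18 for Napa around -0.10, -0.16 to 0.35 for Rab5a around 0.10 and -0.20 to 0.83 for Rab11a around 0.31. Over the members the median interval reached 0.40 to each side of the difference, or 1.32-fold, against 0.45 for all genes tested.

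By role, the Rab GTPases had a higher mean in H in 9 and a lower one in 8 of 17 members, the AP subunits a higher one in 6 of 8, the Vps proteins in 5 of 8, the syntaxins and SNAP25 family in 4 of 5 and the sorting nexins in 1 of 5. Over all genes tested the mean was higher in H in 52.7%, and in 61.7% without C1 and L3. The role counts rest in part on these libraries. Without them the differences were 0.09 for Snx6, 0.13 for Snx11 and 0.14 for Snx13, against -0.17 for Snx3 and -0.25 for Snx9. Stx1a then turned to -0.34 and Stx5a to 0.14. Of the Rab GTPases only Rab10 (-0.16), Rab15 (-0.27), Rab21 (-0.02) and Rab32 (-0.34) then had a lower mean in H.

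**Figure D4:**
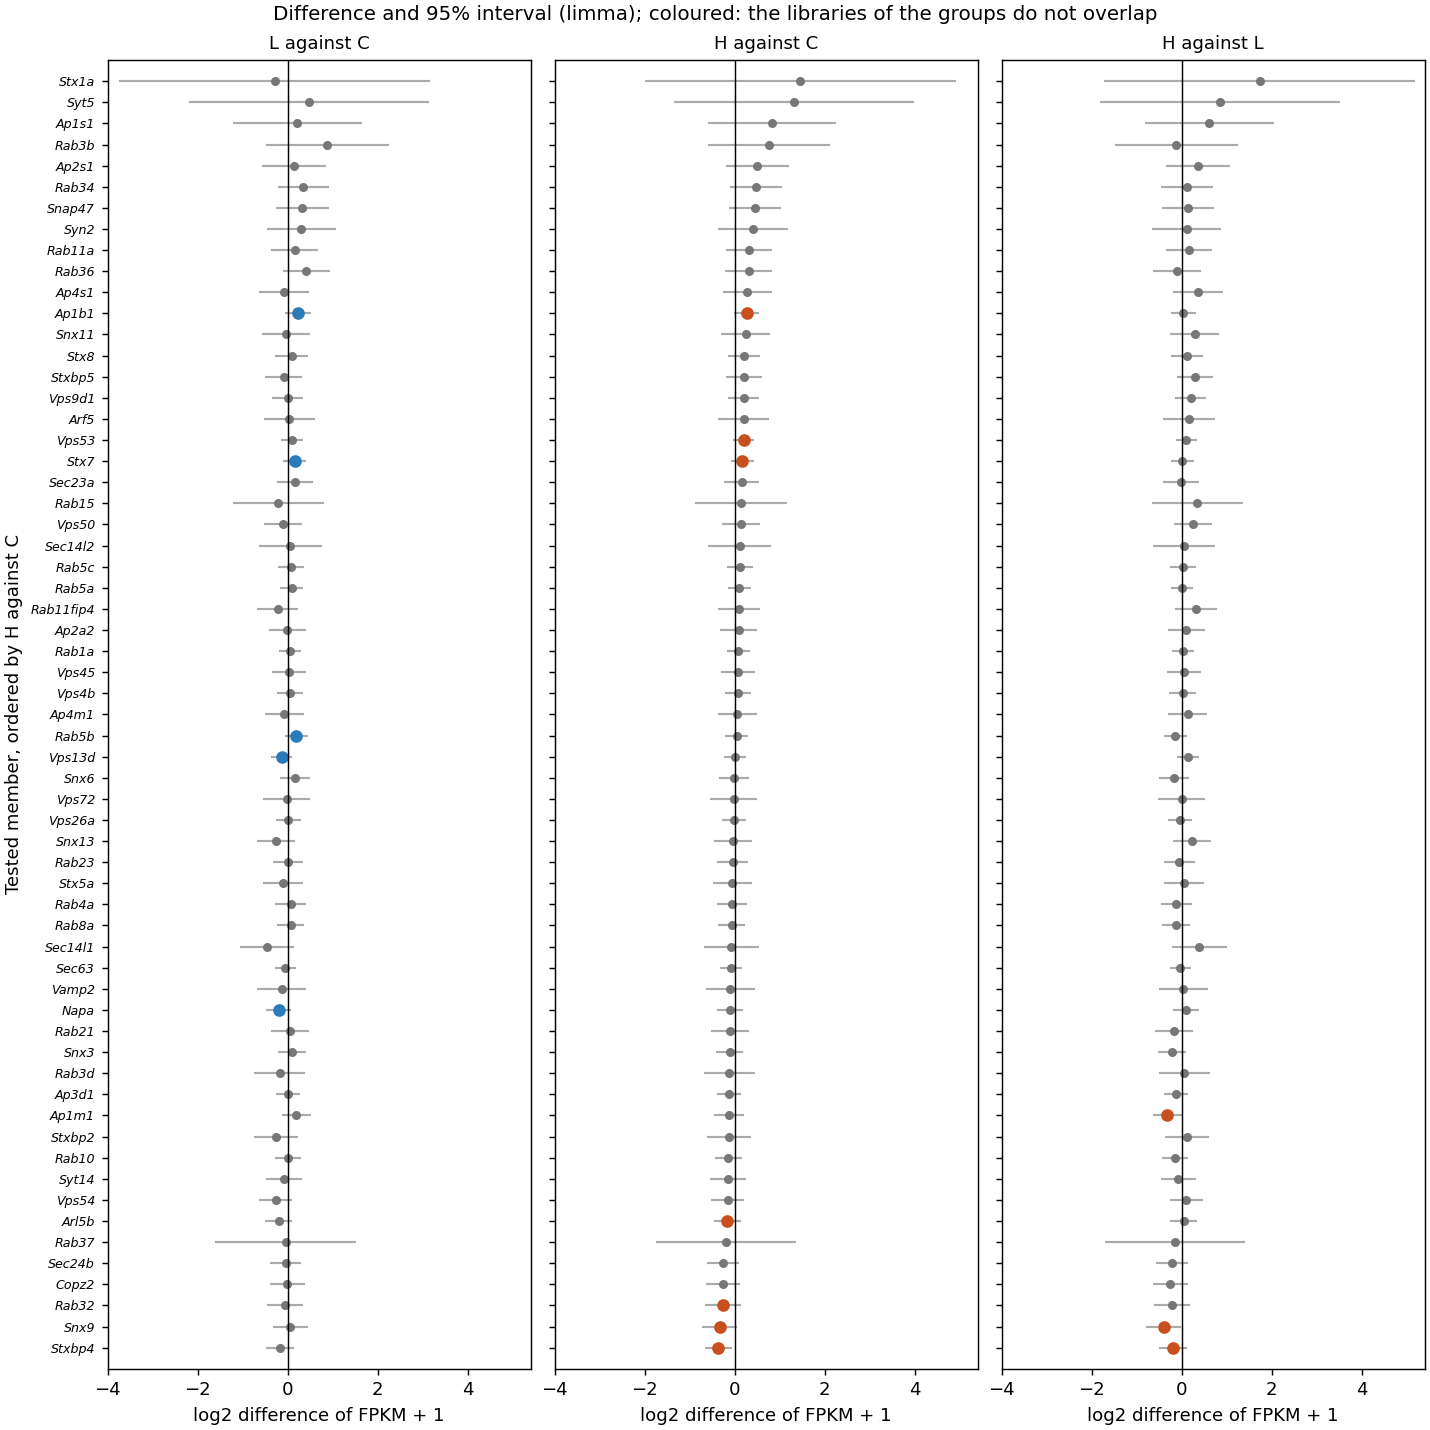
Difference of log2(FPKM + 1) with its 95% interval (limma) for each tested member in L against C, H against C and H against L, on 1 scale and in 1 order. Coloured points are members whose libraries do not overlap between the groups; the widest intervals belong to Stx1a, Syt5, Rab37, Ap1s1 and Rab3b, and no member passed the adjusted threshold.

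For the lower concentration, L was set against the same C libraries, so a value of C1 enters both comparisons. No member was called (adjusted p, limma), as against 0% of all genes, and no member reached an unadjusted p under 0.05, against 3.91% of all genes. The lowest adjusted p of a member was 0.998. Libraries of L and C did not overlap in 5 members (8.2%), against 6.65% of all genes. L lay above C in 3 of them (4.92%), against 4.99% of all genes, and below C in 2 (3.28%), against 1.66%. Means were higher in L in 34 members (55.7%), against 56.3% of all genes, with a median difference of 0.01, against 0.03. Under median-of-ratios scaling the share of members with a higher mean was 41.0%, against 47.8% of all genes, and the median was -0.03, against -0.01. Without C1 and L3 the share was 57.4%, against 68.5% of all genes, and the median was 0.03, against 0.09.

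Ap1b1 had the smallest p of the members, with 41.6, 40.3 and 43.9 FPKM in L and 31.4, 39.8 and 36.4 FPKM in C. Every L library lay above every C library, and the difference was 0.23 ± 0.12 (SE, unadjusted p = 0.102, adjusted p = 0.998, limma) and 0.10 ± 0.12 without C1 and L3. Rab5b had 61.8, 56.8 and 65.8 FPKM in L and 55.1, 52.6 and 53.0 FPKM in C, without overlap, and a difference of 0.19 ± 0.11. Stx7 had 32.7, 34.6 and 35.0 FPKM in L and 26.9, 32.3 and 32.4 FPKM in C, without overlap, and a difference of 0.16 ± 0.11, or 0.05 ± 0.11 without C1 and L3. In Stx7 the gap between L1 and C3 was small, and C1 alone was far below the rest.

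Napa and Vps13d lay lower in every L library than in any C library. Napa measured 51.0, 50.1 and 54.4 FPKM in L and 57.0, 64.8 and 57.9 FPKM in C, with a difference of -0.20 ± 0.12. The lipid transfer protein gene Vps13d measured 6.10, 6.91 and 6.42 FPKM in L and 6.96, 7.39 and 7.30 FPKM in C, with a difference of -0.14 ± 0.11 (SE, adjusted p = 0.998, limma). In H both genes overlapped with C.

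Rab3b had the largest difference with all libraries, 0.88 ± 0.60, and 0.72 ± 0.23 without C1 and L3 (adjusted p = 0.998 and 0.786, limma). That of Stx1a was larger without C1 and L3, -0.95 ± 0.50, against -0.28 ± 1.51 with all libraries. For Rab3b, L1 and L2, at 34.9 and 22.8 FPKM, were the highest of all 9 libraries, and L3 was lower than every library but C1. L1 also had the highest summed level of the hypothalamic markers (166.7 FPKM over 6 of 11), and their part in its Rab3b level was not tested. The remaining members by smallest p were Rab36 at 0.42 ± 0.23 on the higher side, and Sec14l1 at -0.47 ± 0.26, Vps54 at -0.27 ± 0.16, Arl5b at -0.20 ± 0.13 and Snx13, a sorting nexin, at -0.26 ± 0.18 on the lower side, all with overlapping libraries. In Sec14l1 and Vps54 the lowest library was L3. Without C1 and L3 the differences were -0.22 ± 0.18 for Sec14l1, -0.01 ± 0.12 for Vps54 and -0.03 ± 0.16 for Snx13, so those of Vps54 and Snx13 came close to 0.

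H and L were then set against each other, to ask whether the members differ between the concentrations. No member was called, against 0% of all genes (adjusted p, limma), and 1 member, Snx9 (1.64%), was at an unadjusted p under 0.05, against 1.35% of all genes. Libraries did not overlap in 3 members (4.92%), against 9.07% of all genes. H lay lower in these 3, against 6.74% of all genes, and higher in 0, against 2.34%. The mean was higher in H in 39 members (63.9%), against 44.9% of all genes, with a median difference of 0.04 against -0.03. Without C1 and L3, 30 members (49.2%) had a higher mean in H, against 40.3% of all genes, and the median was -0.01, against -0.04. With a regional marker score as covariate the share was 50.8%, against 48.1% of all genes, and the median 0.001, against -0.006. Under quantile normalization the share was 60.7%, against 50%, and under median-of-ratios scaling 65.6%, against 49.6%.

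Snx9 stood at 4.97, 4.78 and 4.84 FPKM in H and 7.18, 5.02 and 8.29 FPKM in L. Every H library was below every L library, by little for L2 and by most for L3. The difference was -0.40 ± 0.17 (SE, unadjusted p = 0.0481, adjusted p = 0.961, limma) and -0.26 ± 0.15 without C1 and L3. Ap1m1, the medium AP1 subunit, stood at 17.2, 17.2 and 17.8 FPKM in H and 23.7, 18.1 and 24.7 FPKM in L. It had a difference of -0.32 ± 0.14 (SE, adjusted p = 0.961, limma), and L2 lay only just above the H libraries. Stxbp4, at 1.78, 1.41 and 1.95 FPKM in H and 2.05, 1.97 and 2.28 FPKM in L, was the third without overlap, with -0.19 ± 0.14.

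Across the 3 groups the mean of Stxbp4 was 2.48 ± 0.286 FPKM in C, 2.10 ± 0.159 FPKM in L and 1.71 ± 0.280 FPKM in H (SD, n = 3 each). Its L and C libraries overlapped. The other members with the smallest p in H against L were Snx3 at -0.21 ± 0.14 and Copz2 at -0.25 ± 0.17 on the lower side. On the higher side they were Stxbp5 at 0.30 ± 0.18, Rab11fip4 at 0.32 ± 0.20, Ap4s1 at 0.37 ± 0.24, Sec14l1 at 0.39 ± 0.26 and Vps50 at 0.25 ± 0.18 (all SE, adjusted p = 0.961, limma). L3 was the lowest of the 9 libraries in Stxbp5, Rab11fip4, Ap4s1 and Sec14l1. With C1 and L3 left out, the differences were 0.14 ± 0.13 for Stxbp5, 0.17 ± 0.14 for Rab11fip4, 0.21 ± 0.23 for Ap4s1 and 0.08 ± 0.17 for Sec14l1. The largest difference in H against L was that of Stx1a, 1.74 ± 1.51 with all libraries and 0.61 ± 0.46 without C1 and L3. For Syt5 the values were 0.85 ± 1.17 and -0.20 ± 0.16, and for Rab3b -0.12 ± 0.60 and -0.62 ± 0.21, the last at an unadjusted p of 0.0208 and an adjusted p of 0.993 (limma).

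The rest of the trafficking pathway was read from 6 lists of 293 genes with other names, of which 69 were measured and 67 tested. None was called in any comparison. At an unadjusted p under 0.05 stood 4 genes in H against C, 2 in L against C and 0 in H against L (limma), or 5.97%, 2.99% and 0%, against 3.19%, 3.91% and 1.35% of all genes. Means were higher in H than in C in 43 genes (64.2%, against 52.7% of all genes) and lower in 24, with a median difference of 0.09, against 0.02 for all genes. In L against C the numbers were 44 and 23 (65.7% higher, against 56.3% of all genes), with a median of 0.04 against 0.03. In H against L they were 40 and 27 (59.7%, against 44.9%), with a median of 0.04 against -0.03. Without C1 and L3 the share in H against C was 66.7%, against 61.7% of all genes, with a median of 0.04 for both. In L against C it was then 68.2% against 68.5%, with a median of 0.05 against 0.09. In H against L it was 51.5% against 40.3%, with a median of 0.00066 against -0.04. These lists were drawn up with earlier results of these data known and do not serve as independent support.

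Cadps2, a priming factor of dense-core vesicles, had 9.67, 9.56 and 15.7 FPKM in H and 31.6, 21.3 and 13.0 FPKM in C, a difference of -0.81 ± 0.30 (SE, unadjusted p = 0.0275, limma). C1 was its highest library by far, and without C1 and L3 the difference was -0.52 ± 0.28. Numb, an endocytic adaptor, had 9.30, 10.5 and 13.2 FPKM in H and 14.8, 14.0 and 15.8 FPKM in C, with a difference of -0.42 ± 0.15 (SE). In L against C its difference was -0.46 ± 0.15 (SE). Gga3, a clathrin adaptor of the trans-Golgi network, had 10.4, 9.44 and 10.4 FPKM in H and 14.3, 11.8 and 13.5 FPKM in C, with a difference of -0.36 ± 0.11 (SE). The unadjusted p of Numb and Gga3 in limma was 0.0229 and 0.0123 in H against C.

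Among proteins of the vesicle membrane and of transmitter loading, 11 of 12 tested genes had a higher mean in H than in C, with a median difference of 0.23, and 11 of 12 a higher mean in L than in C, with a median of 0.08. Of all genes tested 52.7% and 56.3% had a higher mean, with medians of 0.02 and 0.03, and both comparisons use the same C libraries. With C1 and L3 left out, the numbers were 10 of 12 in H against C, with a median of 0.09, and 6 of 12 in L against C, with a median of 0.00022. The exception in H against C was Atp6v0e, a subunit of the proton pump that fills vesicles, with 6.32, 5.20 and 4.90 FPKM in H and 10.7, 6.28 and 7.06 FPKM in C and a difference of -0.45 ± 0.19, or -0.25 ± 0.14 without C1 and L3. The catalytic-sector subunit Atp6v1b2 had 185, 172 and 185 FPKM in H and 96.1, 179 and 149 FPKM in C, with 0.40 ± 0.22. C1 was its lowest library, and without C1 and L3 the difference was 0.15 ± 0.15. Syngr3, a synaptogyrin of synaptic vesicles, had 62.8, 76.5 and 36.8 FPKM in L and 23.7, 54.3 and 46.2 FPKM in C, with 0.51 ± 0.34.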

How the data were processed

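Values came from 1 deposited table of FPKM with gene lengths, per the file headers, of which 2996 genes in 9 libraries were analysed. Genes outside these 2996 enter neither the shares of all genes nor the adjustment of p. GRCm38 is the build in the submitters' processing notes. The aligner and counter were not given in the sources used here. Values times length were whole multiples of 1 read within 0.01 reads for 100% of values, which gave library sizes and reads. Coordinates in the table matched GENCODE M21 for 20 genes, so those printed come from GENCODE M21 by Ensembl identifier.

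Members were matched by symbol. The members and lists were chosen with earlier results of these data known. The 2226 genes above 1 FPKM in 3 or more libraries were fitted in limma 3.58.1 under R 4.3.3 on log2(FPKM + 1), a scale that compresses changes of low genes, with all 9 libraries, a mean-variance trend and robust moderation. P-values were two-sided and adjusted over all 2226 genes, with a threshold of 0.05. With 3 against 3 libraries an exact permutation test cannot go below 0.1.

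Named members were the 5 smallest p in each direction per comparison, the 10 widest ranges, the 10 highest means and 6 measured core release genes, others being chosen after their values were seen. Of each list of other pathway genes, examples were taken from the 2 smallest p per comparison. In 16 members exons overlap another gene, in 13 of them on the opposite strand, and counts there are uncertain (Ap2a2, Ap4m1, Ap4s1, Arf5, Rab10, Rab11a, Rab3b, Rab5a, Sec23a, Sec63, Snap47, Snx11, Stx5a, Syn2, Vps53, Vps9d1). Some markers and neighbouring genes are not reported here. Promoters came from the RefSeq table. The fit was tested on simulated data. Alternatives were the pseudocount, filter, normalization, moderation, limma-voom on the recovered reads, the libraries in the fit, a replicate block, a regional marker covariate and leaving out libraries. Tables were handled in Python 3.11.15 with pandas 2.3.3.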

Additional observations from a re-analysis of the deposited data

How the results depend on the processing

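Under 19 alternatives (18 planned and, chosen after seeing the data, a fit without C1 and L3) the number of members and of genes passing the adjusted threshold was 0 in every comparison, and the lowest adjusted p of a member was 0.394. The median difference of the members ranged from 0.01 to 0.08 in H against C, from -0.05 to 0.05 in L against C and from -0.01 to 0.10 in H against L. In the latter 2 comparisons it thus took both signs. The pooled SD within groups of single libraries' median level was 0.063, which is not the error of a difference between groups. The number of members at an unadjusted p under 0.05 ranged from 0 to 5 in H against C, 0 to 2 in L against C and 0 to 4 in H against L. With single libraries left out, it was 5 in H against C without C2 and 0 without H1 or without H2, and 4 in H against L without L2. Stxbp4 in H against C was among them in 16 of 19 alternatives, but not without C3, H1 or H2, and Snx9 in H against L in 6 of 19. With the replicate number as a block these counts were 2 in H against C, 1 in L against C and 1 in H against L, and no member was called. The labels name no batch for same-numbered libraries, whose deviations from the group means correlated at -0.51 to 0.68 over 9 pairs. Among pairs of unlike number, C1 with L3 stood at 0.66 and C2 with L3 at -0.62. With 3 libraries per group and C1 and L3 apart from the rest, this cannot decide whether same-numbered libraries share a batch. Without C1 and L3 the counts were 1, 1 and 1, and the cause of these shifts was not tested. Of the 30 differences named by smallest p, none changed its sign or its call. The depth was enough for 61 members; Ap1m2, Rab25, Sec14l4 and Snx31, at 0 to 47 reads per library, could not be compared. With 3 libraries per group the 95% interval of the median member reached 1.32-fold to each side.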

Other observations

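Of the 67 tested pathway genes that carry other names, C1 and L3 were the lowest libraries in 12 (17.9%), against 13.2% of all genes tested, and the highest in 9 (13.4%), against 15.9%. The paralogs Lin7a and Lin7b, which encode scaffold proteins of synaptic junctions, lay at opposite ends. Lin7a was at 24.8, 3.39 and 3.83 FPKM in C1 to C3, 5.58, 2.88 and 6.30 FPKM in L1 to L3, and 3.21, 4.40 and 3.69 FPKM in H1 to H3, with C1 far above the rest and L3 next. Lin7b was at 1.83, 7.10 and 5.34 FPKM in C1 to C3, 5.33, 6.25 and 2.27 FPKM in L1 to L3, and 6.26, 5.48 and 6.90 FPKM in H1 to H3, and there C1 and L3 were the lowest. Appl2, an effector of Rab5 on early endosomes, was at 84.5, 14.1 and 14.4 FPKM in C1 to C3, 18.7, 15.7 and 30.0 FPKM in L1 to L3, and 16.2, 13.2 and 12.6 FPKM in H1 to H3. C1 was highest and L3 next, while Rab5a itself differed little between libraries. The clathrin adaptor gene Epn3, best known from epithelia, was at 4.77, 0.804 and 0.512 FPKM in C1 to C3, 1.29, 0.430 and 4.41 FPKM in L1 to L3, and 0.951, 0.794 and 0.117 FPKM in H1 to H3. C1 and L3 were again the highest, and the other 7 libraries lay at 0.117 to 1.29 FPKM. Git1, an Arf GTPase-activating scaffold at synapses, was at 36.6, 70.5 and 101 FPKM in C1 to C3, 76.9, 66.3 and 49.3 FPKM in L1 to L3, and 65.0, 72.5 and 90.9 FPKM in H1 to H3, with C1 and L3 lowest. These examples were chosen after their values were seen, and the part of brain region in them was not tested.

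Differences on the log2(FPKM + 1) scale ran with transcript length across genes. Spearman's rho was -0.24 over the 61 members and -0.25 over all 2226 genes in H against C, -0.41 and -0.27 in L against C, and 0.02 and -0.05 in H against L. Genes are not independent replicates, so these are descriptions with no test.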
